A study of Bos taurus with 8 samples.

Results

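The 50 genes described here belong to the unfolded protein response and to the machinery that takes new secretory proteins into the endoplasmic reticulum (ER), folds them and ships them out. They were taken by gene name from the single-cell RNA tables of bovine peripheral blood mononuclear cells (PBMCs), which listed all 50 among 21861 genes, and through the same Ensembl identifiers from the single-cell chromatin accessibility (ATAC) tables. Blood of 4 lactating Holstein females aged 2 years was mixed into a single pool and split. The control received no lipopolysaccharide (LPS, a glycolipid of the bacterial surface), and the other portions received 2 µg/ml LPS in vitro for 2 h, 4 h or 8 h before PBMCs were isolated. Every treatment is represented by 1 RNA library and 1 ATAC library, so differences between treatments carry no test. The time that the control blood was kept before isolation is not given in the sources used here, so LPS and time in culture cannot be told apart.

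Secretory and membrane proteins enter the ER through the Sec61 channel, guided by the signal recognition particle, and are trimmed by signal peptidase, glycosylated by oligosaccharyltransferase and folded by chaperones and disulfide isomerases. Proteins that fail to fold are returned to the cytosol for ER-associated degradation, and folded ones leave in vesicles coated by COPII proteins. When folding falls behind, the sensors IRE1 (ERN1), ATF6 and PERK (EIF2AK3) start the unfolded protein response, which raises chaperone and degradation genes and slows translation. Antibody-secreting cells are known for a large ER and for high levels of this machinery, and resting lymphocytes for low levels.

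Levels were followed in all cells and in 4 classes gated on marker genes, each class holding the cells with at least 5 unique molecular identifiers (UMIs, counted transcript molecules) of CD14, of CD3E, of MS4A1, or of both JCHAIN and MZB1. CD14 marks monocytes, CD3E T cells, MS4A1 B cells, and JCHAIN with MZB1 antibody-secreting cells. The last gate thus picks cells of a kind already known for high levels of the secretory machinery. Comparisons of the members with that class are therefore not independent of the gate. Cells that passed more than 1 gate were left out, which was the only treatment of doublets, and no doublet caller was run. In the order no LPS, 2 h, 4 h, 8 h this removed 259 of 1110, 159 of 534, 132 of 314 and 124 of 219 CD14-gated cells. It removed 82 of 189, 41 of 174, 43 of 114 and 22 of 43 JCHAIN+MZB1-gated cells. From the CD3E and MS4A1 gates 65 to 133 and 120 to 143 cells per library were removed. The part of this uneven loss in the differences from the control was not tested. The CD14 class held 851, 375, 182 and 95 cells in the order no LPS, 2 h, 4 h, 8 h. The CD3E class held 712 to 1329 cells per library, the MS4A1 class 407 to 1445, and the JCHAIN+MZB1 class 107, 133, 71 and 21. UMIs were summed over the cells of a class in a library and given as CPM (counts scaled to 1000000 UMIs of that sum). All values listed by library run in that order. UMIs come from the 3′ ends of transcripts and were not divided by gene length, so levels are compared between classes and libraries and not between genes.

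The RNA libraries held 3860 to 10429 barcodes, of which 3411 to 9865 passed the limits on genes, UMIs and mitochondrial share, with 16657841 to 47875879 UMIs in those cells. Pairs of RNA libraries shared 8 to 24 cell barcodes. The 8 h library was the smallest, and its JCHAIN+MZB1 class was so small that 1 UMI equalled 1.24 CPM. With the gate genes left out, the other monocyte markers summed to 4251 to 7454 CPM in the CD14 class and to at most 245 CPM in the other classes. The other T cell markers summed to 619 to 708 CPM in the CD3E class and to at most 62 CPM elsewhere, and the other B cell markers to 893 to 1180 CPM in the MS4A1 class and at most 297 CPM elsewhere. The JCHAIN+MZB1 class held 612 to 649 CPM of the other plasma cell markers, more than the 161 to 277 CPM of the MS4A1 class and the 191 to 417 CPM of the CD14 class. SDC1, a plasma cell surface protein, had 2, 1, 0 and 0 UMIs over all cells of up to 3000 genes, so its 0 in this class is no check of the label. GNLY, a cytotoxic granule gene, stood at 602, 616, 744 and 677 CPM in this class against 271, 219.5, 222 and 212 CPM in the CD3E class, but of the other 5 NK cell markers none was above the 8.44 CPM of NKG7 without LPS, and all 5 were at 0 at 4 h and 8 h. The 6 plasmacytoid dendritic cell markers analysed summed to 197 to 219 CPM in the JCHAIN+MZB1 class and to 263 to 398 CPM in the MS4A1 class. In the CD14 and CD3E classes they summed to at most 57 CPM. The JCHAIN+MZB1 class is called by its gate throughout. JCHAIN itself read 10936, 11282, 11407 and 10939 CPM in the JCHAIN+MZB1 class, 138, 73.4, 67.5 and 67.3 CPM in the MS4A1 class and at most 46 CPM in the CD3E and CD14 classes.

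The members together took a larger part of the RNA of the JCHAIN+MZB1 class than of any other class. Their summed share was 3.04, 3.05, 2.89 and 2.65% of UMIs in that class, with a mean of 2.91% ± 0.188 (SD, n = 4 libraries). In the CD14 class the shares were 1.40, 1.12, 1.28 and 1.19%, a mean of 1.25% ± 0.123. The CD3E class gave 0.741, 0.754, 0.767 and 0.725% and the MS4A1 class 0.653, 0.697, 0.687 and 0.647%, with means of 0.747% ± 0.0180 and 0.671% ± 0.0243. The 4 values of the JCHAIN+MZB1 class lay above all 12 values of the other classes, and the 4 values of the CD14 class lay above those of both lymphocyte classes. The ranges of the CD3E and MS4A1 classes did not overlap either, although they lay close to each other.

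**Figure D1:**
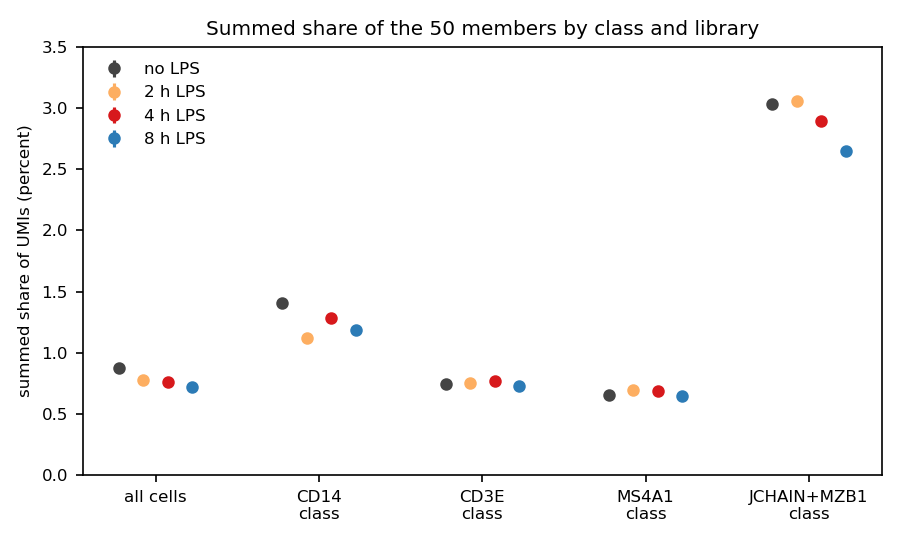
Summed share of UMIs taken by the 50 members (percent, vertical axis) in all cells and in each gated class (horizontal axis), 1 point per library coloured by treatment, with 95% counting intervals that are mostly smaller than the points. The JCHAIN+MZB1 class lies between 2.65% and 3.05%, the CD14 class between 1.12% and 1.40%, and the CD3E and MS4A1 classes below 0.8%.

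The excess of the JCHAIN+MZB1 class over the MS4A1 class was uneven across roles. The mean share of the 7 folding chaperones and their helpers was 0.797% ± 0.0844 (SD, n = 4) against 0.132% ± 0.0167, a ratio of 6.03. Signal peptidase subunits followed with a ratio of 5.76, disulfide isomerases with 5.49, Sec61 translocon genes with 4.78, vesicle transport genes with 4.73 and oligosaccharyltransferase subunits with 4.20. The smaller ratios were those of the degradation genes at 3.37, the translocon-associated TRAP subunits at 2.90, the signal recognition particle at 2.07 and the 3 stress sensors at 1.85. Against the CD3E class, the CD14 class showed a different order, with ratios of 3.37 for the chaperones and 2.60 for the translocon. The signal recognition particle, at 0.858, and the TRAP subunits, at 0.499, had lower shares in the CD14 class. The mean share of the TRAP subunits was 0.129% ± 0.0169 (SD, n = 4) in the CD14 class and 0.258% ± 0.00961 in the CD3E class. The difference between roles was not tested.

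**Figure D2:**
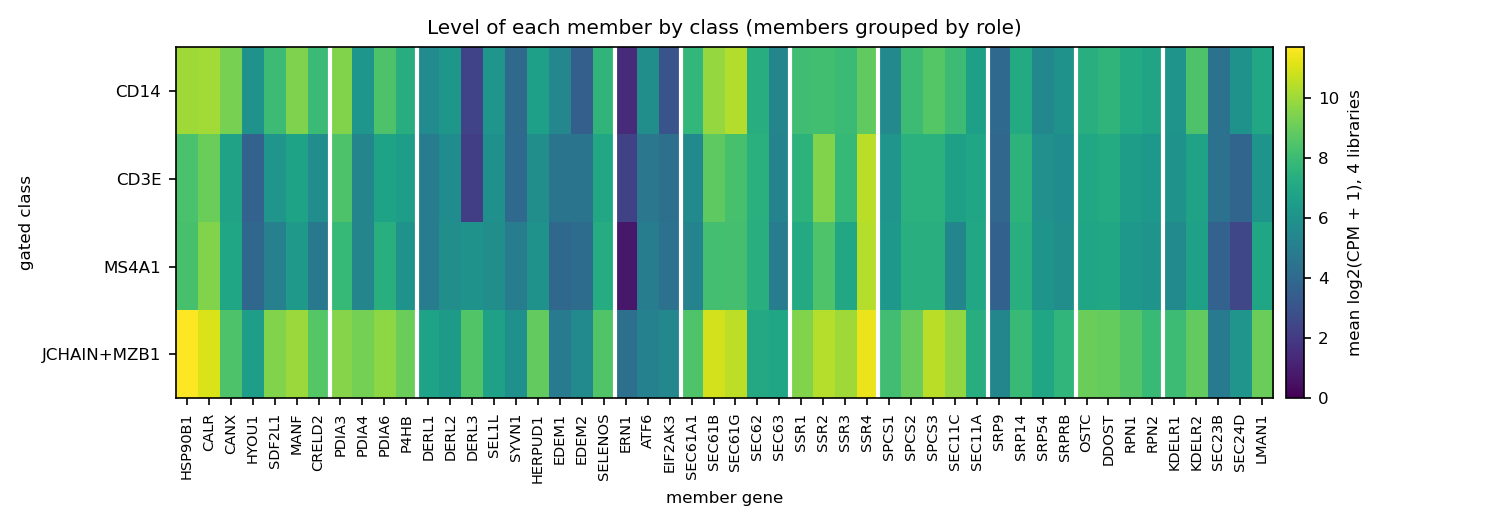
Mean level of each member, as log2(CPM + 1) averaged over 4 libraries (colour), with the 50 members grouped by role along the horizontal axis (white lines separate roles) and the 4 gated classes on the vertical axis. The JCHAIN+MZB1 row is the brightest for most members, while CANX, ATF6 and EDEM1 are brightest in the CD14 row.

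Levels were next compared between the JCHAIN+MZB1 and MS4A1 classes over the 4 libraries, the pair of gates drawn for the B lineage. Of the 50 members, all of which passed the filter on low counts, 49 were higher in the JCHAIN+MZB1 class and none was lower at an adjusted p under 0.05 (edgeR quasi-likelihood test, Benjamini-Hochberg adjustment over 10349 genes), where 27.8% of all genes tested were higher and 28.6% lower. The median log2 fold change was 2.31 over the members and -0.07 over all genes. The share called among the members, 49 of 50, stands far above that background. The members were chosen with earlier results of these data known, so that share is a description and not independent support. Cells of the JCHAIN+MZB1 class held a median of 23057 to 32728 UMIs and those of the MS4A1 class 5451 to 9289. The part of this depth difference in the contrast was not tested. The 4 libraries came from 1 pool of blood under 4 treatments. With the library as a block, these p-values rest on how class differences varied from library to library, estimated over all 4 classes. They do not measure the spread between animals. Scaling matters here: edgeR's TMM factors raise this contrast, and with class totals alone 48 members were higher, against 17.7% of all genes higher and 41% lower.

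Among the chaperones and their helpers, HSP90B1, the ER member of the HSP90 family, read 3853, 3506, 3209 and 2819 CPM in the JCHAIN+MZB1 class and 276, 362, 375 and 269.7 CPM in the MS4A1 class. Its log2 fold change was 3.75 ± 0.14 (SE), adjusted p = 3.72e-12 (edgeR). SDF2L1, a partner of the ER chaperone BiP, read 801, 795, 699 and 621 CPM against 36.2, 32.2, 27.5 and 36.2 CPM, a log2 fold change of 4.82 ± 0.14 (SE), adjusted p = 3.67e-13 (edgeR). For both genes every library of the first class lay above every library of the second, and both showed their highest JCHAIN+MZB1 level without LPS and their lowest at 8 h. MANF, a secreted factor induced by ER stress, read 1093, 1117, 942 and 775 CPM against 65.3, 103, 93.0 and 67.1 CPM, and CRELD2, another secreted ER stress gene, 418, 428, 420.3 and 309 CPM against 28.3, 28.9, 22.5 and 22.2 CPM. These gave log2 fold changes of 3.94 ± 0.14 and 4.31 ± 0.13, again without overlap. HYOU1, a large HSP70-like chaperone, followed at 3.01 ± 0.20, and the lectin chaperones of glycoproteins, CANX and CALR, at 1.90 ± 0.14 and 1.88 ± 0.11. All 7 passed the test, with the weakest adjusted p at 8.77e-09 for CANX (edgeR).

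The 4 disulfide isomerases form and shuffle the disulfide bonds that hold antibodies together. PDIA4 read 642, 671, 611 and 497 CPM in the JCHAIN+MZB1 class and 34.8, 33.6, 44.3 and 45.9 CPM in the MS4A1 class, a log2 fold change of 4.28 ± 0.16 (SE), adjusted p = 3.72e-12 (edgeR). P4HB, the founding member of the family, gave 3.47 ± 0.13, PDIA6 2.68 ± 0.15, and PDIA3, which works on glycoproteins with CANX and CALR, 2.10 ± 0.12. All 4 were higher without overlap of the libraries.

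All 9 genes of ER-associated degradation were higher in the JCHAIN+MZB1 class, over a wide range. HERPUD1, an organiser of the degradation complex and a known target of the unfolded protein response, read 545, 558, 457 and 382 CPM against 52.3, 83.4, 59.9 and 52.8 CPM, a log2 fold change of 3.34 ± 0.13. DERL3, a derlin of secretory tissues, read 372, 376, 381 and 324 CPM against 106, 75.4, 50.8 and 41.0 CPM, giving 2.83 ± 0.18 (SE), adjusted p = 1.86e-09 (edgeR). The JCHAIN+MZB1 levels of DERL3 stayed within a narrow band while its MS4A1 levels were highest without LPS and lowest at 8 h. The related derlins DERL1 and DERL2 gave 2.16 ± 0.12 and 0.94 ± 0.11. The ubiquitin ligase SYVN1 (HRD1) and its partner SEL1L gave the same rounded value, 1.28 and 1.28. The mannose-trimming factors EDEM1 and EDEM2 gave 1.30 ± 0.13 and 1.86 ± 0.18, and SELENOS, a selenoprotein of the degradation complex, 1.63 ± 0.14.

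The 3 stress sensors differed most among themselves. ERN1, the IRE1 kinase and nuclease that splices XBP1 mRNA, read 15.4, 16.8, 23.0 and 21.0 CPM in the JCHAIN+MZB1 class and 1.11, 0.593, 0.625 and 0.431 CPM in the MS4A1 class, the latter from only 7, 6, 6 and 2 UMIs. Its log2 fold change of 5.08 ± 0.26 (SE), adjusted p = 1.30e-10 (edgeR) was the largest among the 50 members. EIF2AK3, the PERK kinase that slows translation, read 34.5, 42.6, 39.1 and 51.9 CPM against 28.9, 19.3, 18.0 and 16.2 CPM, without overlap, a log2 fold change of 1.36 ± 0.20 (SE), adjusted p = 2.96e-05 (edgeR). ATF6, a membrane-bound transcription factor released by cleavage, read 36.3, 41.1, 30.3 and 30.9 CPM against 18.0, 43.2, 36.0 and 25.01 CPM, and these ranges overlapped. Its call was marginal at 0.55 ± 0.23 (SE), adjusted p = 0.0494 (edgeR), and with class totals in place of TMM it was 0.23 with an adjusted p of 0.317.

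Genes of protein entry were higher with 1 exception. SEC61A1, the channel subunit, read 363, 399, 376 and 305 CPM against 35.9, 37.5, 37.7 and 36.0 CPM, a log2 fold change of 3.64 ± 0.12 (SE), adjusted p = 2.12e-12 (edgeR). Its partner subunits SEC61B and SEC61G gave 3.03 ± 0.10 and 2.61 ± 0.13, and SEC63, which recruits BiP to the channel, 2.33 ± 0.14. SEC62, which works beside SEC63 at the same channel, was the exception, with 115, 134, 139 and 139.7 CPM in the JCHAIN+MZB1 class and 170.5, 167, 152 and 150.1 CPM in the MS4A1 class. Its CPM ranges did not overlap, the MS4A1 class being higher, yet its log2 fold change with TMM was 0.07 ± 0.11 (SE), adjusted p = 0.617 (edgeR), and with class totals -0.27 with an adjusted p of 0.0826. The direction of SEC62 thus changed with the scaling and passed the threshold under neither.

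Of the TRAP subunits, which sit beside the channel, SSR3 gave 3.37 ± 0.12, SSR1 2.73 ± 0.10, SSR2 2.26 ± 0.10 and SSR4 1.31 ± 0.11. The signal recognition particle genes SRP9, SRP14 and SRP54 gave 2.19 ± 0.16, 0.93 ± 0.10 and 1.25 ± 0.12, and SRPRB, a subunit of its receptor, 2.27 ± 0.13. All 8 of these genes were higher without overlap of the libraries.

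The 2 catalytic subunits of signal peptidase behaved unalike. SEC11C read 911, 947, 867 and 806 CPM in the JCHAIN+MZB1 class and 43.4, 40.9, 38.0 and 37.1 CPM in the MS4A1 class, a log2 fold change of 4.83 ± 0.14 (SE), adjusted p = 3.67e-13 (edgeR). SEC11A, the alternative catalytic subunit, read 154, 167, 133 and 164 CPM against 132, 132, 127 and 111 CPM, giving 0.64 ± 0.11 (SE), adjusted p = 1.15e-04 (edgeR). Both were higher without overlap, with SEC11C at the top of the role and SEC11A at the bottom. The shared subunits SPCS1, SPCS2 and SPCS3 lay between them at 2.25 ± 0.12, 2.00 ± 0.10 and 3.52 ± 0.12. The difference between SEC11C and SEC11A was not tested.

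The 4 oligosaccharyltransferase genes kept close together, with RPN1 at 2.68 ± 0.12, OSTC at 2.47 ± 0.12, DDOST at 2.28 ± 0.11 and RPN2 at 2.24 ± 0.10. Among the transport genes SEC24D, a cargo-binding COPII coat protein, read 67.2, 74.4, 65.8 and 63.1 CPM against 6.04, 3.56, 3.86 and 5.82 CPM, a log2 fold change of 4.24 ± 0.15 (SE), adjusted p = 2.93e-12 (edgeR). The KDEL receptors KDELR1 and KDELR2, which return escaped ER proteins, gave 2.86 ± 0.13 and 2.51 ± 0.12. LMAN1, a cargo receptor for glycoproteins, gave 2.51 ± 0.15 and the COPII coat gene SEC23B 1.67 ± 0.17. Of these 9 genes only SEC23B had overlapping libraries. In total 47 of the 50 members had all 4 JCHAIN+MZB1 libraries above all 4 MS4A1 libraries in CPM and 1, SEC62, had all below, where 15.4% and 36.9% of all genes tested did.

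**Figure D3:**
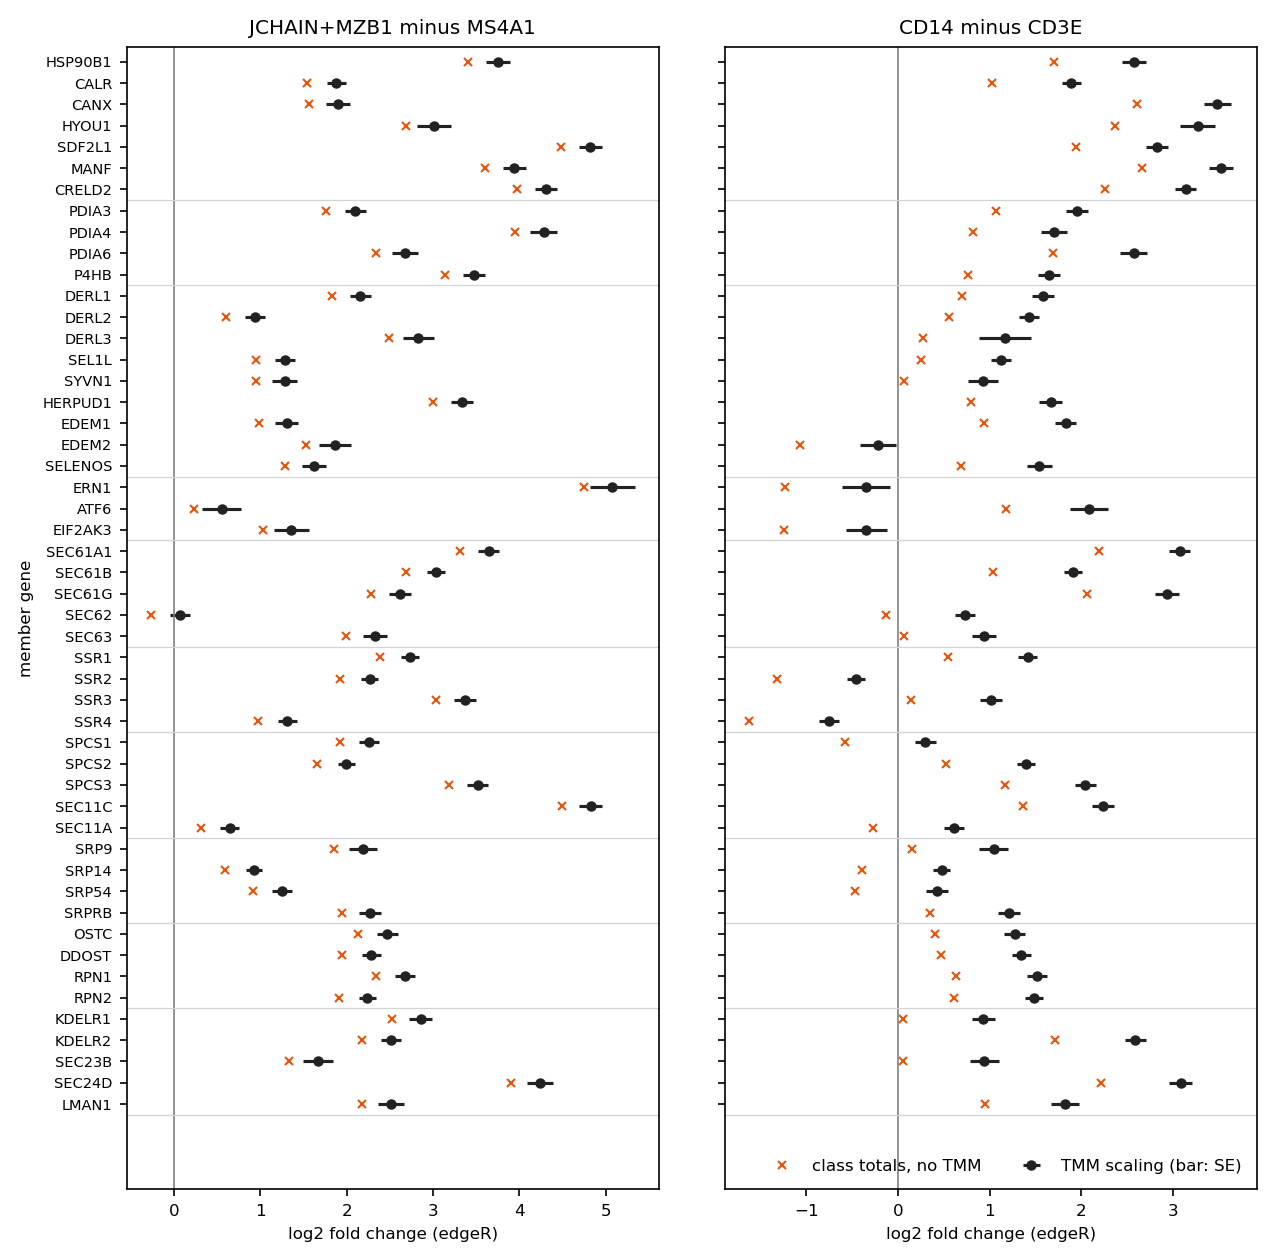
Log2 fold change (edgeR, horizontal axis) of each member (vertical axis, grouped by role with grey lines) for JCHAIN+MZB1 minus MS4A1 (left) and CD14 minus CD3E (right), over 4 libraries. Filled points use TMM scaling with bars of 1 SE and crosses use class totals, which shifts every member to the left and moves several members of the right panel across 0.

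Of 63 other genes of the pathway that were found and tested, 57 were higher in the JCHAIN+MZB1 class and 1, the oxidase gene ERO1B at -0.90 (edgeR adjusted p = 0.00491), was lower. This list was also chosen with earlier results of these data known, so its count is a description. The largest log2 fold changes were those of KDELR3, a KDEL receptor, at 6.60 ± 0.32, TRAM2 at 5.97 ± 0.26, the disulfide isomerase family gene TXNDC5 at 5.33 ± 0.20, CREB3L2 at 4.67 ± 0.23 and the BiP co-chaperone DNAJB9 at 4.29 ± 0.16.

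In the second comparison, CD14 against CD3E, 45 members were higher in the CD14 class, 2 were lower and 3 passed in neither direction (edgeR, adjusted p under 0.05), where 35.4% of all genes tested were higher and 40.6% lower. The median log2 fold change was 1.5002 over the members and -0.14 over all genes. This count rests on the scaling. With class totals in place of TMM, 31 members were higher, 9 lower and 10 neither, where 19.9% of all genes were higher and 64.4% lower, and the medians were 0.62 and -1.02. In CPM 29 members had all 4 CD14 libraries above all 4 CD3E libraries and 8 had all below, against 17% and 59.2% of all genes. Cells of the CD14 class held a median of 13908 to 21077 UMIs and those of the CD3E class 5225 to 6690.

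The chaperones had the highest median of any role, at 3.14 with TMM. MANF read 729, 544, 897 and 612 CPM in the CD14 class and 101, 125, 118 and 94.1 CPM in the CD3E class, a log2 fold change of 3.53 ± 0.13 (SE), adjusted p = 1.16e-12 (edgeR), or 2.67 with class totals. CANX read 470.0, 694, 749 and 660.1 CPM against 92.2, 108, 115 and 104 CPM, giving 3.49 ± 0.15 (SE), adjusted p = 3.50e-12 (edgeR), or 2.61 with class totals. Neither gene overlapped between the classes, and CANX was also higher in each CD14 library than in the JCHAIN+MZB1 class, where it read 369.5, 350.3, 336 and 305 CPM. HYOU1, CRELD2, SDF2L1 and HSP90B1 gave 3.27 ± 0.20, 3.14 ± 0.12, 2.83 ± 0.12 and 2.58 ± 0.13 with TMM and 2.37, 2.26, 1.95 and 1.70 with class totals. CALR gave 1.89 ± 0.11 and 1.02, so all 7 chaperones passed in the same direction with either scaling.

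Among the translocon genes SEC61A1 read 253, 210.4, 214 and 182 CPM in the CD14 class against 46.9, 48.6, 50.4 and 41.8 CPM in the CD3E class, a log2 fold change of 3.08 ± 0.12 (SE), adjusted p = 1.45e-12 (edgeR). SEC61G and SEC61B gave 2.94 ± 0.13 and 1.91 ± 0.10, and these 3 channel subunits stayed above 1 with class totals, at 2.19, 2.06 and 1.04. SEC62 turned from 0.74 to -0.14 and SEC63 from 0.94 to 0.06 when TMM was left out, so no direction is given for SEC62.

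The TRAP subunits did not all lie on the same side. SSR4 read 479, 423, 499 and 457 CPM in the CD14 class and 1472, 1439, 1422 and 1400.1 CPM in the CD3E class, a log2 fold change of -0.75 ± 0.11 (SE), adjusted p = 1.01e-05 (edgeR), or -1.63 with class totals. SSR2 read 379.8, 243, 295 and 253 CPM against 805, 761, 700.4 and 646 CPM, giving -0.46 ± 0.10 (SE), adjusted p = 5.05e-04 (edgeR), or -1.33 with class totals. All 4 CD14 libraries lay below all 4 CD3E libraries for both genes, which were the only members lower with TMM. SSR1 was higher at 1.42 ± 0.10 and remained so with class totals at 0.54, while SSR3 went from 1.02 to 0.14.

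The sensors differed here as well. ATF6 read 48.4, 84.7, 58.7 and 33.2 CPM in the CD14 class and 20.5, 28.3, 28.3 and 20.3 CPM in the CD3E class, without overlap, a log2 fold change of 2.09 ± 0.21 (SE), adjusted p = 1.37e-07 (edgeR). ERN1 read 1.69, 1.24, 1.56 and 2.34 CPM against 2.95, 3.43, 4.92 and 5.03 CPM and EIF2AK3 11.4, 6.05, 8.74 and 4.67 CPM against 17.9, 17.2, 18.8 and 22.7 CPM. Both were lower in every CD14 library than in any CD3E library in CPM, but with TMM they gave -0.35 ± 0.26 (SE), adjusted p = 0.258, and -0.34 ± 0.22 (SE), adjusted p = 0.166 (edgeR). With class totals they passed as lower, at -1.23 and -1.25, as did the degradation gene EDEM2 at -1.07.

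Of the remaining members, the disulfide isomerases gave log2 fold changes from 1.65 (P4HB) to 2.57 (PDIA6), the oligosaccharyltransferase genes from 1.27 (OSTC) to 1.52 (RPN1) and the transport genes from 0.93 (KDELR1) to 3.09 (SEC24D), all higher with TMM. DERL3 was barely present in either class, at 5.24, 3.103, 7.18 and 2.34 CPM against 4.49, 3.43, 2.89 and 3.52 CPM, and its call (1.17, edgeR adjusted p = 0.00149) was lost with class totals (0.28). Calls were also lost with class totals for KDELR1, SEC23B, SEL1L, SYVN1, SRP9, SRPRB, SSR3 and SEC63. SEC11A, SPCS1, SRP14 and SRP54 turned to lower, at -0.27, -0.57, -0.39 and -0.47. Of the 63 other pathway genes, 48 were higher and 9 lower with TMM, and 25 higher and 19 lower with class totals. KDELR3 (6.08 ± 0.28), the disulfide isomerase PDIA5 (5.75 ± 0.23), the translation-restarting phosphatase subunit PPP1R15A (3.94 ± 0.17), DNAJB9 (3.70 ± 0.15) and the COPII GTPase SAR1A (2.98 ± 0.14) had the largest differences.

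The MS4A1 and CD3E classes were closer. Of the 50 members 5 were higher in the MS4A1 class and 20 lower (edgeR, adjusted p under 0.05), where 22.8% of all genes tested were higher and 25.7% lower. The median was -0.14 over the members and -0.03 over all genes. With class totals the counts were 5 and 16, against 22.6% and 22.4% of all genes. DERL3 stood apart, with 106, 75.4, 50.8 and 41.0 CPM in the MS4A1 class and 4.49, 3.43, 2.89 and 3.52 CPM in the CD3E class, a log2 fold change of 4.18 ± 0.22 (SE), adjusted p = 2.12e-10 (edgeR). The other members higher were SYVN1 (1.00 ± 0.15), LMAN1 (0.82 ± 0.15), PDIA6 (0.60 ± 0.14) and CALR (0.40 ± 0.10), and these 5 were also the members whose MS4A1 libraries all lay above the CD3E libraries, against 21.4% of all genes. ERN1 was the lowest at -2.54 ± 0.28 (SE), adjusted p = 9.80e-07 (edgeR), followed by SEC24D at -1.55 ± 0.15, SEC11C at -1.38 ± 0.12, CRELD2 at -1.11 ± 0.12, SDF2L1 at -1.07 ± 0.12 and SSR2 at -1.06 ± 0.10. SEC24D, SEC11C, CRELD2 and SDF2L1 thus had their lowest levels of the 4 classes in the MS4A1 class and, except for SEC24D, their highest in the JCHAIN+MZB1 class in every library. SEC24D read 71.7, 40.8, 66.8 and 72.9 CPM in the CD14 class, which overlapped its JCHAIN+MZB1 levels. Of the 63 other pathway genes 8 were higher and 22 lower, with PDIA5 at 4.18 ± 0.23, CREB3L2 at -2.00 ± 0.25, ERP29 at 1.86 ± 0.10, FKBP11 at -1.78 ± 0.13 and XBP1, the transcription factor made by IRE1 splicing, at -1.48 ± 0.17.

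Over all cells, the summed share of the members was 0.872, 0.775, 0.763 and 0.717% of UMIs, highest without LPS and lowest at 8 h. With every cell given equal weight, whatever its UMI total, it was 0.775, 0.716, 0.720 and 0.734%, again highest without LPS but lowest at 2 h. Against the control, 5 members were past 1.5-fold lower at 2 h, 8 at 4 h and 9 at 8 h, and none was past 1.5-fold higher, where 6.69%, 9.58% and 6.95% of all genes tested were lower and 3.42%, 5.12% and 4.95% higher. The share of members at 2 h, 5 of 50, was near the background, and the shares at 4 h and 8 h were above it. With cells weighted equally 3, 5 and 0 members were lower, where 7.03%, 8.5% and 4.14% of all genes were, so with those weights the counts were near or below the background. The medians of the log2 ratio, computed on CPM + 1, were -0.14, -0.15 and -0.25 over the members and -0.03, 0.03 and 0.11 over all genes. In summed cells, fewer cells of a type and less RNA per cell cannot be told apart.

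SDF2L1 read 111, 62.3, 44.4 and 51.0 CPM over all cells, log2 ratios of -0.83, -1.30 and -1.11. SEC24D read 24.2, 11.4, 12.5 and 12.7 CPM, SEC11C 139.9, 78.6, 64.4 and 65.6 CPM and CRELD2 101, 65.0, 46.8 and 41.2 CPM. In each of these genes the control was above all 3 LPS libraries. MANF gave log2 ratios of -0.60, -0.69 and -1.001, with the lowest level at 8 h, and SEC61A1 -0.57, -0.79 and -0.90. DERL3 gave -0.23, -0.61 and -0.76. SEC61G was past the fold at 4 h (-0.63), and KDELR2 (-0.79) and KDELR1 (-0.72) at 8 h.

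The cell makeup moved with these differences. With no upper limit on genes, cells past the CD14 gate made up 13.2% of cells without LPS and 5.15%, 3.96% and 5.72% after LPS. Cells past the JCHAIN+MZB1 gate made up 2.24%, 1.68%, 1.44% and 1.12%. The ratios over all cells, however, were taken on cells of up to 3000 genes. Of those, 725 of 7821, 333 of 9865, 135 of 7387 and 47 of 3411 passed the CD14 gate. The JCHAIN+MZB1 gate was passed by 63, 34, 20 and 3 of them. In cells without any CD14 UMI, SDF2L1 read 51.2, 42.4, 36.9 and 40.4 CPM, CRELD2 37.0, 43.7, 38.4 and 32.3 CPM and MANF 88.6, 111, 113 and 87.4 CPM. The controls of CRELD2 and MANF lay within the ranges of their LPS libraries, and that of SDF2L1 lay above them by less than 1.5-fold. Counted over these cells, no member was past 1.5-fold lower at 2 h and only DERL3 at 4 h and 8 h (-0.81 and -0.97), where 3.45%, 6.21% and 2.89% of all genes were. ATF6 (0.69) and SEC23B (0.59) were past 1.5-fold higher at 2 h, where 2.95% of genes were, and no member was at 4 h or 8 h, where 3.98% and 3.61% were. The selection on CD14 UMIs was made after these data were seen, and CD14 is itself a transcript that LPS can change. It also took out cells past the JCHAIN+MZB1 gate. With no upper limit on genes, 89 of 189, 43 of 174, 25 of 114 and 21 of 43 of these held a CD14 UMI. Up to 3000 genes, 15 of 63, 0 of 34, 0 of 20 and 0 of 3 held at least 5. The part of that uneven removal in the ratios was not tested.

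**Figure D4:**
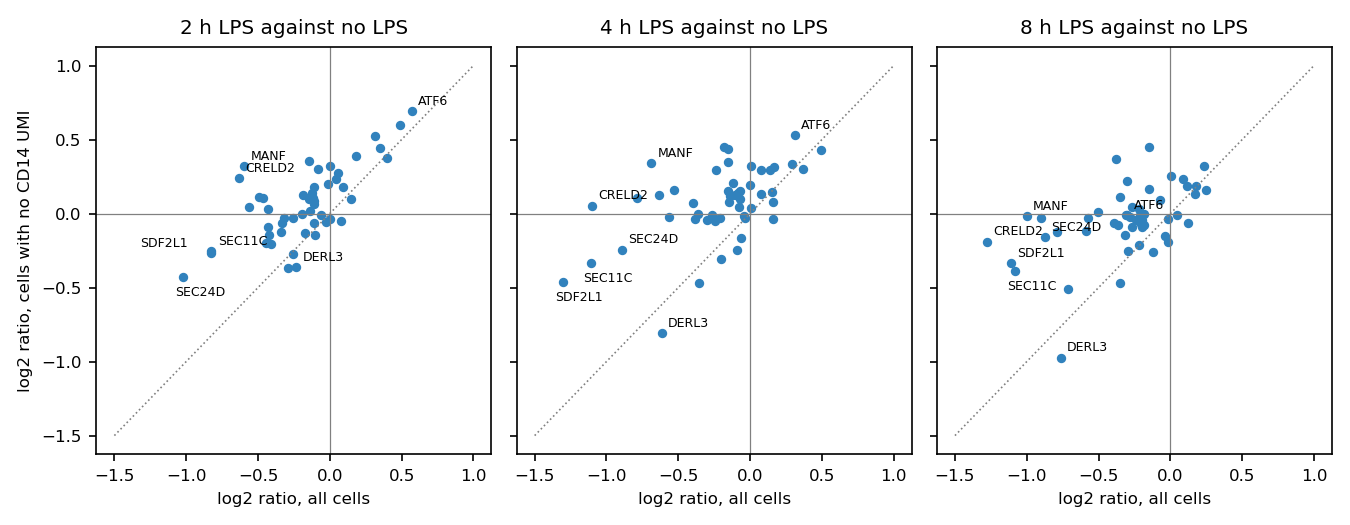
Log2 ratio of each LPS library to the control for the 50 members in all cells (horizontal axis) and in cells without a CD14 UMI (vertical axis), 1 panel per time, with the dotted line marking equal ratios. SDF2L1, CRELD2, SEC11C, SEC24D and MANF lie far to the left of 0 but nearer 0 on the vertical axis, while DERL3 is low on both axes at 4 h and 8 h.

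Within the gated classes the members' levels were compared again with the control. In the JCHAIN+MZB1 class no member was past 1.5-fold in either direction at 2 h or 4 h, where 3.89% and 4.71% of genes were higher and 1.99% and 3.91% lower. At 8 h, with 21 cells, SEC23B alone was past it at -1.21, where 6.59% of genes were higher and 6.69% lower. The members' log2 ratios spanned -0.17 to 0.40 (2 h) and -0.28 to 0.55 (4 h). Their summed share in this class was lowest at 8 h, where HSP90B1, SDF2L1, MANF, CRELD2 and PDIA4 also read their lowest levels.

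In the CD3E class no member was past 1.5-fold at 2 h or 4 h, where 2.61% and 4.27% of genes were higher and 2.29% and 3.35% lower. ERN1 was past it at 8 h (0.61), where 3.79% were higher and 2.13% lower, with levels of 2.95, 3.43, 4.92 and 5.03 CPM from 23, 33, 51 and 30 UMIs. Its counting interval was 1.87 to 4.42 CPM without LPS and 3.40 to 7.19 CPM at 8 h, so the intervals overlapped.

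The MS4A1 class held members past the fold in both directions. At 2 h 5 members were past 1.5-fold higher and 2 lower, at 4 h 2 and 4, and at 8 h 2 and 3, of 49 members with enough counts. The background was 7.07%, 8.11% and 7.52% higher and 10.1%, 13.2% and 9.71% lower, so the 5 of 49 higher at 2 h stood somewhat above the background and the other counts below it. ATF6 read 18.0, 43.2, 36.0 and 25.01 CPM, log2 ratios of 1.22, 0.96 and 0.46, with the 95% counting interval without LPS, 14.8 to 21.6 CPM, below that at 2 h, 39.2 to 47.4 CPM. SELENOS (0.79), HERPUD1 (0.66), SEC23B (0.66) and MANF (0.65) were the other members higher at 2 h, and none of them was past the fold later. HYOU1 showed a later course, with 10.3, 13.2, 18.2 and 16.2 CPM and log2 ratios of 0.33, 0.76 and 0.60. SEC61G was higher at 8 h (0.59).

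DERL3 went the other way in the MS4A1 class, at 106, 75.4, 50.8 and 41.0 CPM and log2 ratios of -0.49, -1.05 and -1.35, each library below the one of the shorter exposure. The ubiquitin ligase gene SYVN1 was lower at 4 h (-0.93), EIF2AK3 at 4 h and 8 h (-0.65 and -0.80), EDEM2 at 2 h and 4 h (-0.73 and -0.60), SEC24D at 2 h (-0.63) and SSR2 at 8 h (-0.74). In the JCHAIN+MZB1 class DERL3 gave log2 ratios of only 0.01, 0.03 and -0.20. JCHAIN in the MS4A1 class read 138, 73.4, 67.5 and 67.3 CPM over the same libraries and MZB1 9.69, 5.83, 7.30 and 4.96 CPM, both highest without LPS. The 7 plasma cell markers outside the gate summed to 161, 277, 219.5 and 174 CPM there, each LPS library above the control. Their part in the DERL3 levels was not tested. Among the other pathway genes of the MS4A1 class, 6 were past 1.5-fold higher and 2 lower at 2 h, led by PPP1R15A (1.09), SIL1, a nucleotide exchange factor of BiP (-1.03), TRIB3 (1.01), HSPA5, which encodes BiP (0.85), and ERO1B (-0.76). At 4 h 4 were higher and 1 lower, and at 8 h none and 1.

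**Figure D5:**
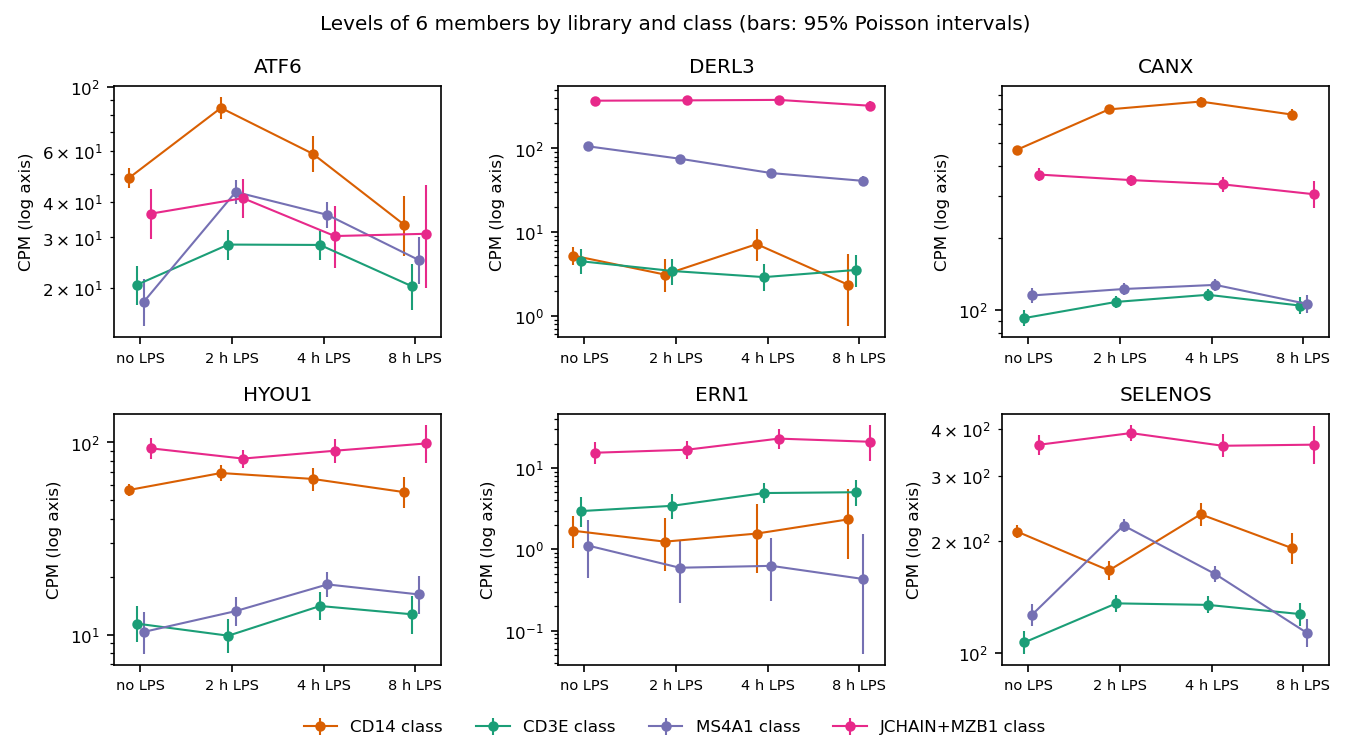
Levels in CPM (log axis) of ATF6, DERL3, CANX, HYOU1, ERN1 and SELENOS in each library (horizontal axis) and gated class (colour), with 95% Poisson intervals that cover counting error only. ATF6 is highest at 2 h in the MS4A1, CD14 and JCHAIN+MZB1 classes, DERL3 descends in the MS4A1 class only, and CANX is lowest without LPS in the CD14 class.

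In the CD14 class, 1 member was past 1.5-fold higher and 15 lower at 2 h. At 4 h the counts were 1 and 2, at 8 h they were 2 and 8, of 49 members with enough counts, where 6.69%, 12.2% and 9.65% of genes were higher and 35.6%, 15.3% and 8.05% lower. The members' median log2 ratio at 2 h, -0.39, was close to that of all genes in that class, -0.41, and with TMM scaling 4 members were higher and 2 lower at 2 h with medians of 0.01 and -0.04. At 8 h, with 95 cells, 8 of 49 members were lower against 8.05% of genes, but with gates at 3 UMIs 4 of 49 against 9.23%. With the 3000-gene limit it was 10 of 48 against 19.8%, so under those settings the count was near or below the background. With TMM it was 12 of 49 against 10.1%. The medians at 8 h were -0.29 over the members and 0.02 over all genes, and 41 of 49 members lay below 0. Under every setting run the members' 8 h median lay below that of all genes, with differences from -0.18 to -0.37. At 4 h the medians were -0.20 and -0.04. Over the same 4 libraries the monocyte markers outside the gate summed to 7454, 4811, 4251 and 5603 CPM in this class, the 4 granulocyte markers to 7.73, 24.7, 94.6 and 15.9 CPM and the 7 plasma cell markers outside the gate to 191, 417, 309.6 and 266 CPM. At 2 h 1 of these 7 plasma cell markers alone read 259 CPM. The gate gene JCHAIN read 15.1, 8.53, 13.7 and 21.02 CPM in this class. MZB1 read 2.74, 2.17, 2.18 and 2.803 CPM, from only 34, 14, 7 and 6 UMIs. Both gate genes were below the control at 2 h and 4 h and above it at 8 h. The part of these monocyte, granulocyte and plasma cell marker differences in the members' levels was not tested. ATF6 read 48.4, 84.7, 58.7 and 33.2 CPM, log2 ratios of 0.79, 0.27 and -0.53. CANX read 470.0, 694, 749 and 660.1 CPM and gave 0.56, 0.67 and 0.49, higher than the control at each time and past 1.5-fold at 4 h. KDELR1 (-1.04, -0.76 and -0.56), EIF2AK3 (-0.82, -0.35 and -1.13) and SEC11C (-0.59, -0.67 and -0.64) were below the control at each time. EDEM2 (0.85) and SEC62 (0.61) were past the fold higher at 8 h, and DERL3 (-0.90), KDELR2 (-0.64), CRELD2 (-0.60), DERL2 (-0.61), LMAN1 (-0.59) and SSR2 (-0.59) lower, besides EIF2AK3 and SEC11C. DERL3 rested on 65, 20, 23 and 5 UMIs in this class. Of the other pathway genes, 1 was higher and 12 lower at 2 h. At 4 h the counts were 5 and 5, at 8 h they were 1 and 3. KDELR3 was lower at each time (-1.30, -0.88 and -1.01) and PPP1R15A higher at 2 h and 4 h (0.75 and 1.01).

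Chromatin accessibility was read from counts per gene and barcode summed over each ATAC library. Of the 50 members 42, 45, 44 and 41 were listed in the 4 libraries, and CRELD2, DERL2, PDIA3, SPCS1 and SPCS2 in none. The control library held 975012 counts against 30250143, 26837579 and 11957904 in the LPS libraries, so LPS libraries were compared with that of 2 h and the control is given as levels only. At 4 h no member was past 1.5-fold higher and 1 of 44 lower, SSR4 (-0.68), from 1.98 to 0.857 CPM, where 0.924% of genes were higher and 3.61% lower. SSR4 rested on only 60 and 23 counts, and its intervals, 1.34 to 2.83 CPM and 0.436 to 1.51 CPM, overlapped. At 8 h none was higher and 1 of 41 lower, SSR2 (-0.86), from 25.8 to 13.8 CPM, where 3% were higher and 13.8% lower. SEC61B, RPN2, SSR4 and SRP54, with 156, 282, 60 and 54 counts at 2 h, were not listed at 8 h and are outside that count.

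ATF6, DERL3, ERN1 and EIF2AK3 stayed within 1.5-fold of their 2 h accessibility at 4 h and 8 h. ATF6 read 92.2, 89.1 and 72.1 CPM in accessibility at 2 h, 4 h and 8 h, and 31.8 CPM without LPS with an interval of 18.0 to 52.0 CPM, below the 2 h interval of 87.4 to 97.1 CPM. DERL3 read 151, 115, 114 and 124 CPM, ERN1 95.4, 125, 126 and 109 CPM and EIF2AK3 364, 378, 378 and 393 CPM. Cell classes were not separated in the ATAC libraries, so these levels mix all cell types. The part that the low depth of the control library plays in its ATF6 level was not tested.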

How the data were processed

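RNA and ATAC count tables of 8 libraries, deposited as whole-number counts per gene and barcode, were used. Per the labels and the study's methods, the authors made them with Cell Ranger on ARS-UCD1.2/bosTau9. The counting rule of the ATAC tables is not given in the sources used here, and most of their values are even, so their intervals were computed on halved counts. Samples were grouped by LPS time from the labels. Cells with at least 200 genes, at least 200 UMIs and under 20% of UMIs from 13 mitochondrial genes were kept, with an upper limit of 3000 genes over all cells and none in the gated classes, where 56.1 to 85.7% of JCHAIN+MZB1 cells exceed it. Log2 ratios were taken on CPM + 1, and a gene was called past 1.5-fold with at least 50 counts over both libraries. Class contrasts used edgeR 4.0.16 (glmQLFit and glmQLFTest, TMM, filterByExpr, library as block, Benjamini-Hochberg, threshold 0.05) in R 4.3.3, without the 5 gate genes, on raw UMIs summed per library and class. DESeq2 1.42.0 was an alternative. The SE is the log2 fold change divided by the square root of F. Scripts were tested on simulated data. The SDs (n = 4) are over 4 libraries of 1 blood pool, each of another treatment, so they include differences between treatments. Poisson and binomial intervals (95%, exact) cover counting error only. Full values are given for the members past a threshold that the text turns on, other members by log2 value or range, and up to 5 other pathway genes per comparison by size. The members and lists were chosen with earlier results of these data known. OST4 and the markers IL3RA, PPBP and PF4 were not analysed here, and no sequences were used.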

Additional observations from a re-analysis of the deposited data

How the results depend on the processing

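In the class contrasts, the total of members called either way kept within 1.5 times of that reported under every alternative run, while its split in CD14 minus CD3E went from 45 higher and 2 lower to 31 and 9 without TMM. Leaving out 1 library gave 48 to 49 for JCHAIN+MZB1 minus MS4A1, 46 to 48 for CD14 minus CD3E and 21 to 22 for MS4A1 minus CD3E, and class totals without TMM, chosen after the data were seen, gave 48, 40 and 21. Without TMM, SEC11A (-0.27), SPCS1 (-0.57), SRP14 (-0.39) and SRP54 (-0.47) turned to lower in CD14 minus CD3E, SEC62 changed sign (-0.14, edgeR adjusted p = 0.317) without passing, and with the 3000-gene limit ATF6 turned to -0.11 in JCHAIN+MZB1 minus MS4A1. Its call there was also lost with DESeq2, without the library block, without the filter on low counts, without the no LPS or 8 h library, and with gates at 1 UMI or the merged gate. Counts past 1.5-fold rest on few members and moved more often. They are given here with the percent of all genes called in the same direction. Over all cells, without an upper gene limit 1 was lower at 2 h (7.11%) and 5 at 4 h (8.73%), with cells weighted equally 3, 5 and 0 at 2 h, 4 h and 8 h (7.03%, 8.5% and 4.14%), and with a fold of 2 the lower members were 1, 3 and 4 (2.69%, 4.64% and 3.20%). In cells without a CD14 UMI, a setting likewise added later, 2 were higher at 2 h (2.95%), 1 lower at 4 h (6.21%) and 1 lower at 8 h (2.89%). In those cells MANF turned to 0.32 at 2 h and 0.34 at 4 h, CRELD2 to 0.24 and 0.053, SEC61A1 to 0.10 and SEC61G to 0.13 at 4 h. In the CD14 class at 2 h the called members were 6 with TMM (4 higher, 13.0%, and 2 lower, 14.9%), 8 with DESeq2 size factors (6 higher, 13.7%, and 2 lower, 13.5%) and 2 with a fold of 2 (both lower, 11.9%). At 4 h they were 6 with the 3000-gene limit (3 higher, 11.9%, and 3 lower, 21.5%), 7 with gates at 1 UMI (4 higher, 12.5%, and 3 lower, 18.5%) and 0 with a fold of 2 (5.02% higher, 5.59% lower). At 8 h they were 6 with gates at 3 UMIs (2 higher, 9.56%, and 4 lower, 9.23%), 6 with a pseudocount of 5 CPM (2 higher, 5.96%, and 4 lower, 4.61%) and 1 with a fold of 2 (lower, 2.65%). DERL3 turned to 0.76 there at 8 h with gates at 1 UMI. In the CD3E class 1 was higher at 4 h with gates at 1 UMI (3.34%), gates at 3 UMIs (3.78%), TMM (4.72%) and size factors (4.52%), and at 8 h 0 were with the 3000-gene limit (3.79%), the larger pseudocount (1.47%) or a fold of 2 (0.545%). In the MS4A1 class a fold of 2 left 1 higher at 2 h (2.27%), 1 lower at 4 h (3.70%) and 1 lower at 8 h (2.92%), and the larger pseudocount 3 lower at 8 h (6.46%). In the JCHAIN+MZB1 class the 3000-gene limit gave 3 higher at 2 h (6.73%) and 2 at 4 h (1 higher, 7.31%, and 1 lower, 17.7%), gates at 1 UMI gave 1 lower (1.95%) and 2 lower (4.25%), and at 8 h gates at 3 UMIs gave 4 (1 higher, 7.66%, and 3 lower, 7.85%) and TMM 2 lower (7.95%). In accessibility the larger pseudocount gave 0 at 4 h (1.36% lower), and a fold of 2 gave 0 at 4 h (1.44% lower) and 8 h (6.70% lower). With cells weighted equally the members' summed share was 0.775%, 0.716%, 0.720% and 0.734% over all cells and 0.726% in the CD3E class, and with gates at 1 UMI 0.721% in the CD3E class and 3.12% in the JCHAIN+MZB1 class. Classes under 10 cells in a library were left out. With gates at 1 UMI the JCHAIN+MZB1 class held 8 cells at 8 h, so its value does not cover the 8 h library. The cause of these shifts was not tested. No paired analysis was possible because every treatment has 1 library and the labels give no replicate numbers. The library served as a block between classes, and without that block the counts were 48, 46 and 21. Depth limits the JCHAIN+MZB1 class at 8 h, ERN1 in the MS4A1 class and the control ATAC library most.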
